A study of Mus musculus with 12 samples.

Results

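Hox genes encode homeodomain transcription factors that lie in 4 clusters (Hoxa, Hoxb, Hoxc and Hoxd) and are numbered as paralogs from the 3′ to the 5′ end of each cluster. Low-numbered paralogs act towards the head and high-numbered ones towards the tail and, in Hoxa and Hoxd, towards the tip of the limb. Fibroblasts keep part of the Hox pattern of the body site they were taken from, which makes these genes a record of positional identity in culture. Members were the probes whose platform symbol is a Hox gene of clusters A to D. They comprised 38 genes on 50 probes, out of 16593 genes on 25697 probes.

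The cells were immortalised mouse embryonic fibroblasts, all from female C57BL/6 embryos and all carrying SV-40 large T, which inactivates p53 and Rb family proteins. One clone was wild type for β1 integrin (WT), and the other carried the β1 YYFF mutation (YYFF), which per the labels prevents cytokinesis on matrix that only β1 integrin binds. Each clone was profiled without laminin (L0) or after 4 (L4) or 8 (L8) rounds of overnight plating on laminin in serum-free medium, each round being followed by normal medium, and with final growth on plastic. Each of the 6 groups had 2 arrays, and the labels name no separate cultures behind them, so the p-values reflect array-to-array spread that may be technical. Each genotype is a single clone, so genotype and clone cannot be told apart, and neither can laminin rounds and time in culture. The series title names aneuploidy as the study's subject.

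The arrays had 10392 to 11766 probes above background and a summed signal of 13197182 to 17683779. Replicate arrays of a group correlated at 0.987 to 0.994 across the 8891 genes tested. Of 10 fibroblast markers on the array, 7 or 8 were above background on both arrays of each group, among them Col1a1, Col3a1, Pdgfrb and Vim. Col1a2 was so in the YYFF groups alone, and Pdgfra in all groups but YYFF L4 and YYFF L8. None of 6 blood cell markers was above background on both arrays of any group, and at most 1 of 8 endothelial markers was (Tek, in YYFF L0). The epithelial markers Cldn3 and Krt14 were above background on both arrays in YYFF L4 and YYFF L8 and in no other group, and Krt8 in WT L8 alone. The neural progenitor markers Nes and Sox2 were above background on both arrays in all groups. Values below are log2 signals after background correction and quantile normalization. Adjusted p-values are from limma with Benjamini-Hochberg adjustment over the 8891 genes, with a threshold of 0.05. Differences carry ± SE with 2 arrays per group.

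Of the 38 members, 21 were counted as expressed, that is above background (detection p under 0.05) on at least 2 of the 12 arrays. That is 55.3% of the members, and 53.6% of all genes on the array passed the same rule. The Hoxa cluster on chromosome 6 had 8 of 10 members expressed, the Hoxb cluster on chromosome 11 had 6 of 10, the Hoxd cluster on chromosome 2 had 5 of 9, and the Hoxc cluster on chromosome 15 had 2 of 9. Members above background on every array numbered 8, namely Hoxa5, Hoxa7, Hoxa9, Hoxa10, Hoxa13, Hoxd8, Hoxd10 and Hoxd13. Another 16 members were above background on no array, and Hoxc13 was above it on 1. These unexpressed members included Hoxa3, Hoxb1, Hoxb2, Hoxd1, Hoxd3 and Hoxd4 at the 3′ side and Hoxb13, Hoxc11, Hoxc12 and Hoxd12 at the 5′ side. Hoxc13 aside, the others were Hoxa6, Hoxb8, Hoxc5, Hoxc6, Hoxc8 and Hoxc9, so they were not confined to the cluster ends. Hoxa2 at the 3′ side and Hoxa13 and Hoxd13 at the 5′ side were expressed. A probe not above background gives only an upper bound, and an array cannot tell fewer cells that express a gene from less RNA per cell.

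**Figure D1:**
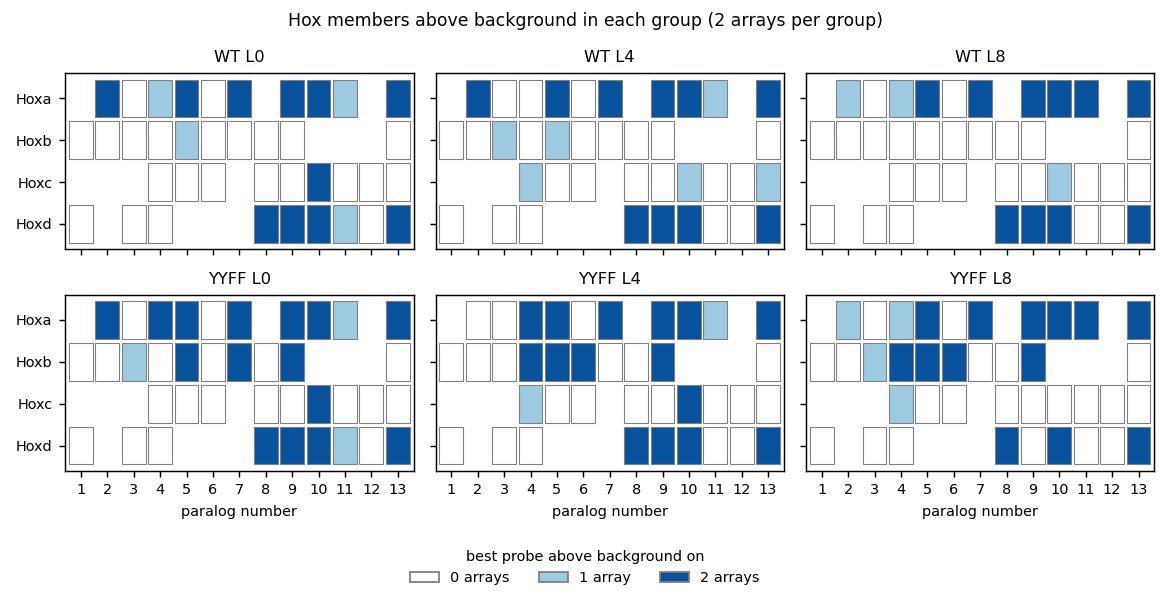
Detection of the 38 Hox members by cluster (rows) and paralog number (horizontal axis) in each of the 6 groups, with shading for the number of arrays, 0 to 2, on which the best probe was above background. The Hoxb row is filled on both arrays of a group in YYFF alone, while the Hoxa and Hoxd rows are filled in all 6 groups.

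The Hoxb cluster differed between the clones in this count. In WT, 0 of 10 Hoxb members were above background on both arrays of a group at L0, L4 and L8. In YYFF there were 3 at L0, 4 at L4 and 4 at L8. Hoxa members numbered 6 or 7 in each group and Hoxd members 3 or 4, so neither row showed a gap of this kind. Hoxc members numbered 0 or 1, with Hoxc10, a posterior paralog, above background on both arrays in WT L0, YYFF L0 and YYFF L4. Over all probes, 41.8% to 44.6% were above background on a WT array and 40.4% to 45.8% on a YYFF array. The share of all genes above background in either clone alone was not counted, so how unusual the Hoxb gap is was not tested.

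Promoter sequences are shown for the 5 members that changed with laminin rounds in YYFF and are in the RefSeq promoter table (build GRCm38.p6), which held 22 of the 38 members with 24 promoters. Each runs 5′ to 3′ on the gene's strand, from 250 bases before the annotated start to 50 after it. Capitals mark matches, on either strand, to TGATNNAT (bound by PBX-HOX dimers), TGACAG (bound by MEIS), TATAAA or CCAAT. They show members that moved together or apart, and draw no link between a motif and a change.
Hoxa5, chr6:52204538-52204837, minus strand: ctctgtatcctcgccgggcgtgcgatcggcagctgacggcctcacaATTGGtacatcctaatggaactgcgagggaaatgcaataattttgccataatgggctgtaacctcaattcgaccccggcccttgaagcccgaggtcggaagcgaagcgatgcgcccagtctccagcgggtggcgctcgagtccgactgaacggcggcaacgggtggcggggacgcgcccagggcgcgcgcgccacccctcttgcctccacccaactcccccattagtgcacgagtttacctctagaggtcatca
Hoxa7, chr6:52218524-52218823, minus strand: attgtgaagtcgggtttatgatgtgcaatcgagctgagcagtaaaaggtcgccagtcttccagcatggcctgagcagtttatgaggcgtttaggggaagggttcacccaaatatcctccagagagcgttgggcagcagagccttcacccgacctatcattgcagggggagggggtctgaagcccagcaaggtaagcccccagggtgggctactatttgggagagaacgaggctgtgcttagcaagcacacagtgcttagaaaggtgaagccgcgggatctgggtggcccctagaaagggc
Hoxb4, chr11:96318017-96318316, plus strand: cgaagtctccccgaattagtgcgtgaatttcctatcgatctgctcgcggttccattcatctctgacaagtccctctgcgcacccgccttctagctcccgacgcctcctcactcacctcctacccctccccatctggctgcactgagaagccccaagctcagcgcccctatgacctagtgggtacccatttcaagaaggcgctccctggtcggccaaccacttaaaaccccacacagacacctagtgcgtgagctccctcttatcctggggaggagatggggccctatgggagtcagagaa
Hoxd8, chr2:74704365-74704664, plus strand: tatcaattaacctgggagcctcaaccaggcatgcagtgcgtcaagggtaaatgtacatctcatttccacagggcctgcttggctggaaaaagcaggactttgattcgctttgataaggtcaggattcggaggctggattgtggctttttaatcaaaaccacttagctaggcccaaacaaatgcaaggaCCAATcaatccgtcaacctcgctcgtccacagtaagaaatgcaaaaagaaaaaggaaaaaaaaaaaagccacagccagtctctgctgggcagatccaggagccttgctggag
Hoxd10, chr2:74691641-74691940, plus strand: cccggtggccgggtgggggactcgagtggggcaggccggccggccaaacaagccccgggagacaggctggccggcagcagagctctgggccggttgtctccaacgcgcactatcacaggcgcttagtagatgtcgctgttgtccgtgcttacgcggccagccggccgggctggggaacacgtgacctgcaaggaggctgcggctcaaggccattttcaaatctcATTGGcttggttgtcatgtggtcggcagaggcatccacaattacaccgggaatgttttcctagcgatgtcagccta
In these windows the capitals are CCAAT, once in Hoxd8 on the strand printed and once each in Hoxa5 and Hoxd10 on the other strand, where it reads ATTGG. None of the 4 motifs is in the Hoxa7 and Hoxb4 windows. CCAAT occurred in 62.5% of the 24 Hox promoters and in 37.41% of all 32851 promoters of the same length, TGATNNAT in 16.67% and 8.846%, TATAAA in 16.67% and 13.62%, and TGACAG in 8.333% and 19.18%. The GC content of the promoters shown ran from 46.67% to 62.67%, and the median was 57.67% over the Hox promoters and 52.67% over all promoters.

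Hoxb9, a posterior trunk paralog, was above background on all 6 YYFF arrays and on none of the 6 WT arrays. Its log2 signal was 6.90 and 7.15 in YYFF L0, 6.92 and 7.27 in YYFF L4, and 7.09 and 7.31 in YYFF L8. In WT it was 4.78 and 4.95 at L0, 4.75 and 4.64 at L4, and 4.71 and 4.75 at L8. The clones did not overlap at any laminin round, and within YYFF the groups overlapped. YYFF exceeded WT by 2.16 ± 0.15 at L0 (adjusted p = 1.10e-05), 2.40 ± 0.15 at L4 and 2.47 ± 0.15 at L8. Against the detection limit in WT these are differences of at least 2.80-fold, 2.80-fold and 3.23-fold. Hoxb9 was counted as expressed, and so tested, through YYFF arrays alone. That rule fixed the direction of its clone differences, and their adjusted p-values carry that selection. No laminin contrast passed the threshold for Hoxb9 in either clone.

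Hoxb7, also a trunk paralog, was above background in YYFF L0 alone. The signal there was 6.68 and 6.56, against 4.74 and 4.78 in YYFF L4, 4.84 and 4.80 in YYFF L8, and 4.59 to 4.68 on the WT arrays. It fell in YYFF at L4 (-1.86 ± 0.09, adjusted p = 7.37e-07) and likewise at L8 (-1.80 ± 0.09), which is at least 2.00-fold and 1.89-fold lower. YYFF exceeded WT at L0 by 1.96 ± 0.09, at least 2.11-fold. The signals at L4 and L8 in YYFF lay close to those in WT, and all were below background.

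Hoxb4, Hoxb5 and Hoxb6, of the middle part of the cluster, moved the other way in YYFF. Hoxb4 was at 5.18 and 5.12 in YYFF L0, not above background, and rose to 6.84 and 6.85 at L4 and to 6.89 and 7.36 at L8. The rises were 1.70 ± 0.14 (adjusted p = 2.21e-05) and 1.98 ± 0.14 (adjusted p = 6.75e-06), at least 2.67-fold and 3.24-fold. All 6 WT arrays were between 4.74 and 4.81, below background, and the YYFF L4 and L8 arrays lay above them by at least 2.36-fold and 3.06-fold.

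Hoxb5 was at 6.70 and 6.57 in YYFF L0, 8.12 and 8.08 in YYFF L4, and 7.60 and 7.54 in YYFF L8, above background on all 6 arrays. In WT it was 5.31 and 6.02 at L0, 5.58 and 5.32 at L4, and 5.44 and 5.51 at L8. Every YYFF array was higher than every WT array, and only WT L0 replicate 2 and WT L4 replicate 1 were above background in WT. The rise in YYFF was 1.47 ± 0.20 at L4 (adjusted p = 5.45e-04), and it was 0.94 ± 0.20 at L8 (adjusted p = 5.92e-03). YYFF exceeded WT by 0.97 at L0 (adjusted p = 7.16e-03), 2.65 at L4 and 2.10 at L8, this last difference being at least 4.18-fold since neither WT L8 array was above background. Without YYFF L0 replicate 1 the difference at L0 was 0.90 and its adjusted p 0.05085.

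Hoxb6 was at 5.33 and 5.06 in YYFF L0 and at 4.65 to 4.73 on the WT arrays, below background on all of these. It was above background at 6.71 and 6.24 in YYFF L4 and at 7.08 and 6.07 in YYFF L8, where the replicates lay far apart. The rise was 1.28 ± 0.28 at L4 (adjusted p = 8.08e-03), and it was 1.38 ± 0.28 at L8 (adjusted p = 4.86e-03), at least 2.06-fold and 2.21-fold. The L4 call was lost without YYFF L0 replicate 2, at 1.15 with an adjusted p of 0.0572, and without YYFF L4 replicate 1, at 1.04 with an adjusted p of 0.0626. YYFF exceeded WT by 1.76 at L4 and 1.90 at L8, at least 1.82-fold and 2.09-fold. Hoxb3, the sixth expressed member, was above background on 3 arrays in 3 groups and passed no contrast.

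The summed signal of the tested epithelial markers rose in YYFF at L4 and L8, where Hoxb4, Hoxb5 and Hoxb6 rose. Over the 4 epithelial markers tested, of 7 on the array, the summed linear signal was 133.07 and 120.13 in YYFF L0. It was 341.79 and 364.54 in YYFF L4, 544.41 and 495.51 in YYFF L8, and between 131.22 and 155.38 on the WT arrays. Only Cldn3 and Krt14 of the 7 were above background on both arrays in YYFF L4 and L8. Each was above background on 4 arrays, all in these groups, so it passed the filter only where it was high. The filter thus fixed the direction of the rise for Cldn3 and Krt14. Krt8 was above background on both arrays in WT L8 alone. The part of the epithelial markers in the Hoxb result was not tested. Among the 3 nearest tested genes on each side of the Hoxb cluster, Snx11 fell in YYFF by 0.51 at L4 and by 0.36 at L8, Cbx1 rose by 0.79 and 0.95, and Nfe2l1 and Ube2z passed neither contrast. Snf8 rose by 0.72 and Atp5g1 fell by 0.43, both at L8 alone. Over both sides of all 4 clusters, 3 of 24 flanking genes rose and 2 fell in YYFF at L4, and 5 rose and 3 fell at L8. Of all genes tested, 14.4% rose and 17.2% fell at L4, and 17.1% rose and 19.3% fell at L8.

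**Figure D2:**
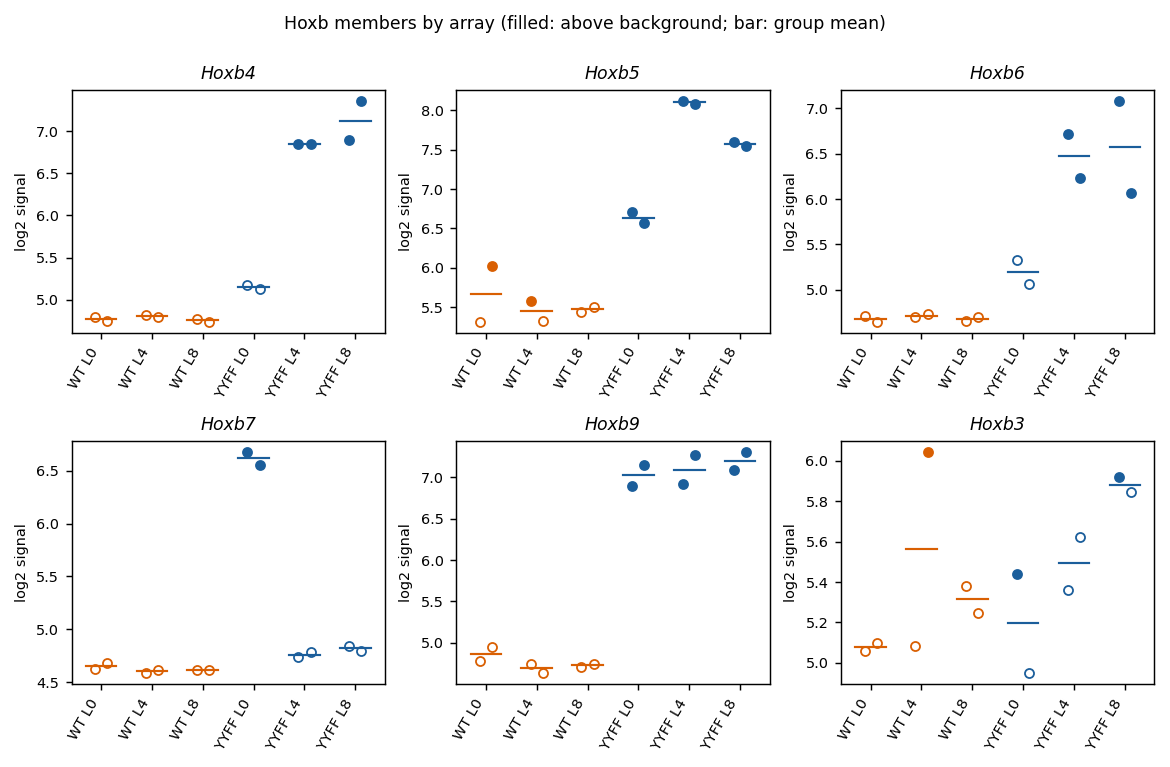
Log2 signal (vertical axes, each with its own range) of the 6 expressed Hoxb members on every array, by group (horizontal axis); filled points are above background, open points are not, and bars are group means of 2 arrays. Hoxb9 is high in all YYFF groups, Hoxb7 in YYFF L0 alone, and Hoxb4 and Hoxb6 in YYFF L4 and L8 alone.

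In the Hoxa cluster, Hoxa5 and Hoxa7 moved in opposite directions in the clones. Hoxa5, which patterns the lung and the cervical and thoracic skeleton, was at 7.40 and 7.74 in WT L0, 6.02 and 6.31 in WT L4, and 6.99 and 6.97 in WT L8. In YYFF it was at 8.00 and 7.55, 8.56 and 8.34, and 8.36 and 8.39 at L0, L4 and L8. WT L4 was the lowest group and did not overlap the others, whereas at L0 the clones overlapped. It fell in WT at L4 by 1.40 on the log2 scale (SE 0.18, adjusted p = 1.01e-03), a call kept with any of the 4 compared arrays left out. In WT it was 0.81 higher at L8 than at L4 and 0.59 ± 0.18 lower at L8 than at L0. It rose in YYFF by 0.67 ± 0.18 at L4 and 0.60 ± 0.18 at L8. The clones differed by 2.29 ± 0.18 at L4 and 1.40 ± 0.18 at L8, YYFF being higher.

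The smaller Hoxa5 changes lost their calls when single arrays were left out. The WT difference between L8 and L0 had an adjusted p of 0.178 without WT L0 replicate 2 (-0.42), 0.0982 when WT L8 replicate 1 was dropped (-0.60) and 0.114 when WT L8 replicate 2 was (-0.58). The WT difference between L8 and L4 had an adjusted p of 0.0778 on leaving out WT L4 replicate 1 (0.67), 0.0664 on leaving out WT L8 replicate 1 (0.80) and 0.0656 on leaving out its replicate 2 (0.83). In YYFF the Hoxa5 rise at L4 was 0.45 without YYFF L0 replicate 2 (adjusted p = 0.133) and 0.56 without YYFF L4 replicate 1 (adjusted p = 0.116). Its rise at L8 was 0.37 without YYFF L0 replicate 2 (adjusted p = 0.19), 0.62 without YYFF L8 replicate 1 (adjusted p = 0.0749) and 0.58 without YYFF L8 replicate 2 (adjusted p = 0.0908).

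Hoxa7, a trunk paralog, was at 8.46 and 8.66 in WT L0, 7.55 and 7.29 in WT L4, and 8.65 and 8.49 in WT L8. In YYFF it was at 8.30 and 8.46 at L0, at 9.66 on both arrays at L4, and at 9.90 and 9.87 at L8. The clones overlapped at L0 and lay apart at L4 and L8. In WT it fell at L4 by 1.14 (SE 0.12, adjusted p = 3.88e-04) and was 1.15 ± 0.12 higher again at L8 than at L4. It rose in YYFF by 1.27 ± 0.12 at L4 (adjusted p = 6.86e-05) and by 1.50 ± 0.12 at L8 (adjusted p = 2.00e-05). YYFF exceeded WT by 2.24 at L4 and 1.32 at L8. All of these calls were kept with any one compared array left out.

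Hoxa10, which patterns the lumbar spine and the reproductive tract, was lower in YYFF in every group. It was at 6.59 and 6.92 in WT L0, 7.33 and 6.53 in WT L4, and 7.66 and 7.42 in WT L8, against 5.81 to 6.09 on the 6 YYFF arrays, all above background. No YYFF array reached the lowest WT array. YYFF minus WT was -0.83 ± 0.24 at L0 (adjusted p = 0.029). It was -0.91 ± 0.24 at L4 (adjusted p = 0.0142), and by L8 it reached -1.61 ± 0.24 (adjusted p = 6.53e-04). In WT the gene rose by 0.78 ± 0.24 at L8 (adjusted p = 0.0297). The L0 difference lost its call without any one of its 4 arrays, at -0.67 to -0.99 with adjusted p from 0.0512 to 0.157. The L4 difference lost it without WT L4 replicate 1 (-0.51, adjusted p = 0.0636) and without YYFF L4 replicate 1 (-0.84, adjusted p = 0.0765). The WT rise lost it without WT L0 replicate 1 (0.62, adjusted p = 0.163), WT L8 replicate 1 (0.66, adjusted p = 0.144) and WT L8 replicate 2 (0.90, adjusted p = 0.0617). The L8 difference was kept throughout.

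Hoxa4 was near the detection limit, at 5.97 and 5.36, 5.25 and 5.08, and 5.52 and 5.51 in WT at L0, L4 and L8, and at 5.88 and 5.72, 6.13 and 5.94, and 5.90 and 5.81 in YYFF. At L4 the clones did not overlap, and YYFF was higher by 0.86 ± 0.18 (adjusted p = 5.11e-03), at least 1.34-fold since neither WT L4 array was above background. Hoxa13, which patterns the digits and the genital tubercle, was at 6.70 to 6.95 on the YYFF arrays. In WT it was at 6.93 and 6.72 at L0, 6.86 and 7.18 at L4, and 7.44 and 7.17 at L8. It rose in WT at L8 by 0.48 ± 0.15 (adjusted p = 0.0348), and at L8 YYFF was lower by 0.49 on the log2 scale (-0.49 ± 0.15, adjusted p = 0.0303). A second Hoxa13 probe past the filter gave -0.17 and 0.41 for the same contrasts, so the probes disagreed in sign. The WT rise was also lost without WT L0 replicate 1 (0.59), WT L0 replicate 2 (0.38) or WT L8 replicate 1 (0.34), and the clone difference without WT L8 replicate 1 (-0.36) or YYFF L8 replicate 1 (-0.39).

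Hoxa2, Hoxa9 and Hoxa11 passed no contrast. Hoxa9, a posterior paralog that helps to maintain blood progenitors, was above background on all 12 arrays through 2 of its 3 probes, at 6.71 to 7.59 on the tested one, and neither probe gave a call. Hoxa11, which patterns the forearm and lower leg, ran from 5.13 to 6.67, with both arrays above background in WT L8 and YYFF L8 alone.

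In the Hoxd cluster, Hoxd8 rose in YYFF and fell in WT. Its signal was 8.37 and 8.62 in WT L0, 8.25 and 8.43 in WT L4, and 7.82 and 8.04 in WT L8. In YYFF it was 8.76 and 8.92 at L0, 9.25 and 9.27 at L4, and 9.58 and 9.62 at L8. The YYFF groups rose in order without overlap, and every YYFF array exceeded every WT array. The rise in YYFF was 0.42 ± 0.13 at L4 (adjusted p = 0.0335), and it was 0.76 ± 0.13 at L8 (adjusted p = 1.54e-03). The fall in WT was 0.57 at L8 (-0.57 ± 0.13, adjusted p = 7.60e-03). YYFF exceeded WT by 0.92 ± 0.13 at L4 and 1.67 ± 0.13 at L8. The YYFF L4 rise lost its call without any one of its 4 arrays (0.34 to 0.50, adjusted p from 0.0581 to 0.181). The WT fall lost it without WT L0 replicate 2 (-0.45, adjusted p = 0.0573) and without WT L8 replicate 1 (-0.46, adjusted p = 0.0617).

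Hoxd10, a posterior paralog of the limb and the lumbar cord, fell in YYFF. It was at 10.08 and 10.03 in YYFF L0, 8.83 and 8.52 in YYFF L4, and 8.66 and 8.62 in YYFF L8. In WT it was at 10.07 and 10.04, 9.43 and 9.63, and 9.78 and 9.90 at L0, L4 and L8. At L0 the clones overlapped, and at L4 and L8 all YYFF arrays were below all WT arrays. The fall in YYFF was 1.38 at L4 (-1.38 ± 0.12, adjusted p = 3.95e-05) and reached 1.41 at L8 (-1.41 ± 0.12, adjusted p = 2.82e-05), and both calls were kept with any one compared array left out. In WT it fell at L4 by 0.52 (SE 0.12, adjusted p = 0.0219), a call lost without WT L0 replicate 1 (-0.51, adjusted p = 0.102), WT L0 replicate 2 (-0.54, adjusted p = 0.0809) or WT L4 replicate 1 (-0.43, adjusted p = 0.114).

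Hoxd9, its neighbour, was at 7.10 and 6.73 in WT L0, 6.17 and 6.38 in WT L4, and 6.26 and 6.04 in WT L8. In YYFF it was at 6.00 and 5.78, 5.64 and 5.76, and 5.41 and 5.82 at L0, L4 and L8, with neither YYFF L8 array above background. All YYFF arrays were below all WT arrays, and WT L0 was the highest group. YYFF was lower than WT by 1.03 on the log2 scale at L0 (-1.03 ± 0.18, adjusted p = 3.04e-03), a call kept with any one compared array left out. Those at L4 (-0.58, adjusted p = 0.0333) and L8 (-0.54, adjusted p = 0.0454, at least 1.37-fold) were not kept. The L4 one lost its call without any one of its 4 arrays, at -0.47 to -0.68. The L8 one lost it without WT L8 replicate 1 (-0.42), WT L8 replicate 2 (-0.65) or YYFF L8 replicate 1 (-0.33).

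Within WT, Hoxd9 fell by 0.64 at L4 (adjusted p = 0.0437) and by 0.77 at L8 (adjusted p = 0.01). The L4 fall lost its call without WT L0 replicate 1, WT L4 replicate 1 or WT L4 replicate 2 (-0.45 to -0.75, adjusted p from 0.0783 to 0.239). The L8 fall lost it without WT L0 replicate 1 (-0.58) or WT L8 replicate 2 (-0.65).

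Hoxd13, which patterns the digits, was at 9.03 and 8.98 in WT L0, 8.75 and 8.30 in WT L4, and 8.71 and 8.17 in WT L8. In YYFF it was at 8.58 and 8.79, 8.33 and 8.12, and 8.11 and 7.91 at L0, L4 and L8. It fell in YYFF at L8 by 0.67 (-0.67 ± 0.20, adjusted p = 0.0294), a call lost without any one of its 4 arrays (-0.57 to -0.78, adjusted p from 0.0511 to 0.149). The WT difference at L8 was -0.57 with an adjusted p of 0.0571, and it did not pass. Hoxd11 was above background on 2 arrays and passed no contrast, as was the case for Hoxc4, on 3 arrays, and Hoxc10, on 8.

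**Figure D3:**
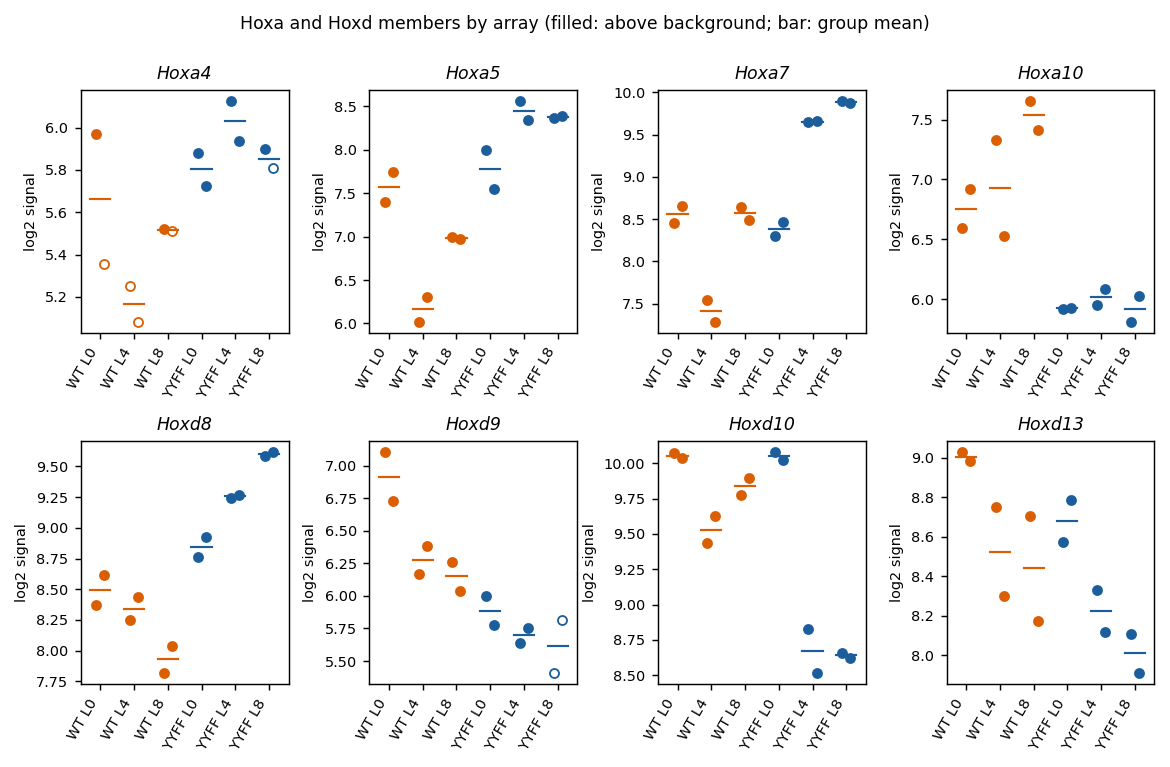
Log2 signal (vertical axes, each with its own range) of 8 Hoxa and Hoxd members on every array, by group (horizontal axis); filled points are above background, open points are not, and bars are group means of 2 arrays. Hoxa7 and Hoxd8 are highest in YYFF L8 and Hoxd10 is lowest in YYFF L4 and L8, while Hoxa10 and Hoxd9 are lower in YYFF than in WT in all 3 pairs of groups.

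Counted over the 21 expressed members, the change from L0 to L4 in WT passed for 4, against 15.5% of all genes tested. Of these, 0 were higher (7.49% of all genes) and 4 lower (7.99%). At L8 in WT 5 passed, 2 higher and 3 lower, against 36.1% of all genes (18.4% higher, 17.7% lower). Between L4 and L8 in WT 2 passed, both higher, against 19.6% of all genes (10.8% higher, 8.86% lower). In YYFF, 8 members passed at L4, 6 higher and 2 lower, against 31.5% of all genes (14.4% higher, 17.2% lower). At L8 in YYFF 9 passed, 6 higher and 3 lower, against 36.4% of all genes (17.1% higher, 19.3% lower). The members' shares in YYFF, 38.1% and 42.9%, were near those of all genes. Between L4 and L8 in YYFF, limma called 0 members, with 2 at an unadjusted p under 0.05, against 1.44% of all genes (0.405% higher, 1.03% lower). Both contrasts against L0 within a clone share the L0 arrays. Hoxb4, Hoxb6 and Hoxb7 passed the filter only through the YYFF groups where they were high, so their YYFF calls had a direction fixed by the filter. The median log2 difference over the members was 0.18 at both L4 and L8 in YYFF, against 0.02 and 0.03 over all genes, and -0.14 and -0.02 in WT, against -0.01 and 0.00. Nes and Sox2, the 2 of 4 neural markers above background, both fell in WT at L8. Their summed signal was 600.8 and 629.11 in WT L0, 399.42 and 394.75 in WT L4, and 236.28 and 249.61 in WT L8. The sum was 349.78 to 455.81 on the YYFF arrays. The part of Nes and Sox2 in the WT Hox changes was not tested.

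Without a single array some of these counts moved by more than 1.5 times. The WT L8 count was 3 without WT L0 replicate 1 and 2 without WT L0 replicate 2, WT L8 replicate 1 or WT L8 replicate 2. The WT count between L4 and L8 was 1 without WT L8 replicate 1 or WT L8 replicate 2. The YYFF L4 count was 5 without YYFF L0 replicate 2 or YYFF L4 replicate 1. The count of members that differed between the clones at L0 was 3 without YYFF L0 replicate 1.

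**Figure D4:**
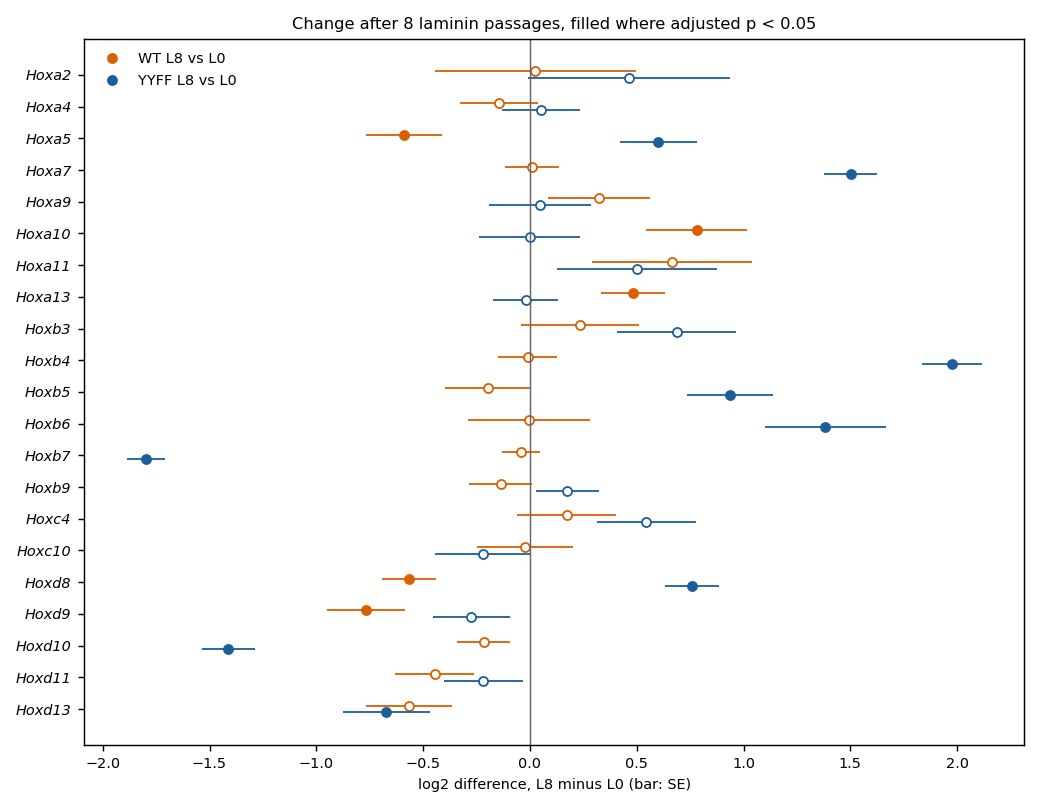
Log2 difference between L8 and L0 (horizontal axis) for the 21 expressed Hox members (rows) in WT and YYFF; points are fitted differences from 2 arrays per group, bars are SEs, and filled points have an adjusted p under 0.05. Hoxb4, Hoxb6 and Hoxa7 lie farthest right and Hoxb7 and Hoxd10 farthest left in YYFF, while their WT points lie near 0.

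Between the clones, 5 of 21 members differed at L0, 3 higher in YYFF and 2 lower, against 27% of all genes (14.7% higher, 12.2% lower). At L4 11 differed, 8 higher and 3 lower, against 37.9% (18.2% higher, 19.7% lower). At L8 11 differed, 7 higher and 4 lower, against 37% (17.2% higher, 19.8% lower). On the mean over the 3 conditions 13 differed, 9 higher and 4 lower, against 46.6% (22.4% higher, 24.2% lower). Of the 9, Hoxb4, Hoxb6, Hoxb7 and Hoxb9 were above background on no WT array and passed the filter through YYFF alone, so the filter fixed their direction. The same holds for those of them counted as higher at L0, L4 or L8. Hoxd13, among the lower ones (-0.35, adjusted p = 0.0349), lost its call without any one of WT L0 replicates 1 and 2, WT L4 replicate 1, WT L8 replicate 1, YYFF L0 replicate 1, YYFF L4 replicate 2 and YYFF L8 replicate 2 (-0.26 to -0.36). The summed linear signal of the 8 fibroblast markers tested was 10987 to 15589 on the WT arrays and 20359 to 23953 on the YYFF arrays. Of the 8, 5 were higher and 1 lower in YYFF on the mean over conditions, 75% called against 46.6% of all genes. The lower one was Pdgfra (-3.08 ± 0.13, adjusted p = 1.49e-07). The part of these markers in the clone differences was not tested.

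**Figure D5:**
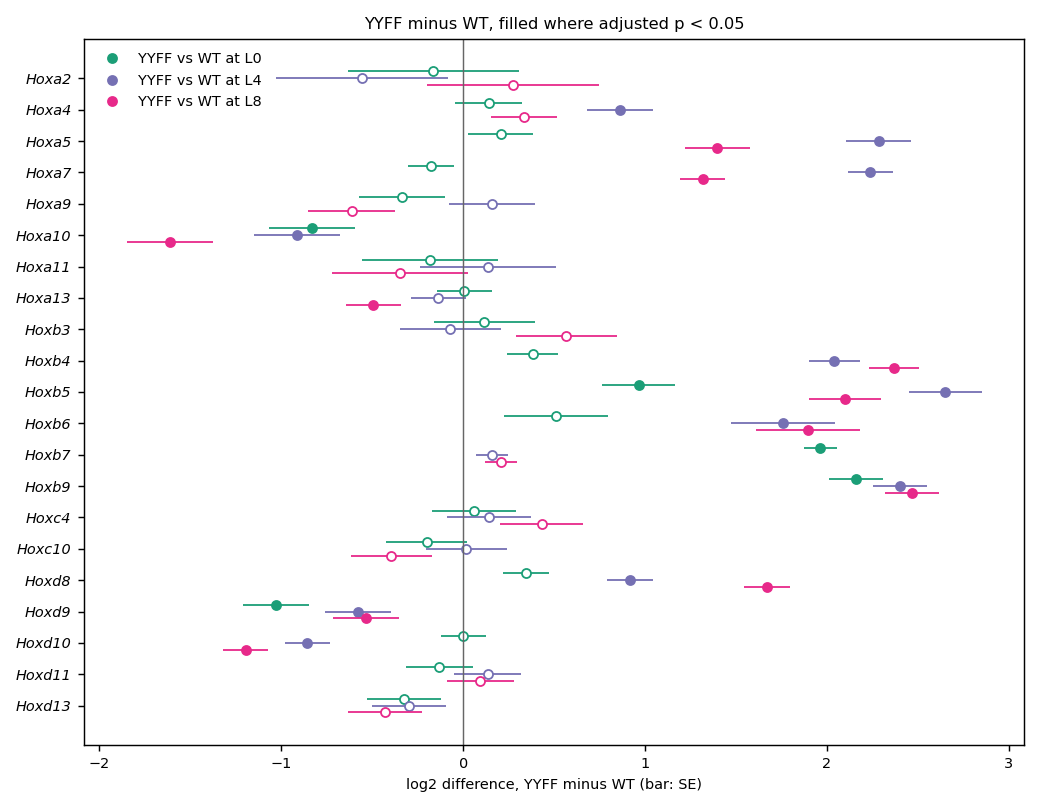
Log2 difference between YYFF and WT (horizontal axis) for the 21 expressed Hox members (rows) at L0, L4 and L8; points are fitted differences from 2 arrays per group, bars are SEs, and filled points have an adjusted p under 0.05. Hoxb9 is far right at all 3 conditions, Hoxa5, Hoxa7, Hoxb4, Hoxb5 and Hoxb6 are farther right at L4 and L8 than at L0, and Hoxa10, Hoxd9 and Hoxd10 are on the left at L8.

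The laminin change itself differed between the clones for 7 members at L4, 5 more positive in YYFF and 2 more negative, against 23.7% of all genes (10.3% and 13.4%). At L8 it differed for 8, 6 more positive and 2 more negative, against 31.8% (14.4% and 17.5%). These interaction contrasts named Hoxa5, Hoxa7, Hoxb4, Hoxb5, Hoxd8, Hoxb7 and Hoxd10 at both L4 and L8, and Hoxb6 at L8. Of these, Hoxb4, Hoxb6 and Hoxb7 passed the filter only through the YYFF groups where they were high, so the filter fixed their direction.

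The TALE homeodomain proteins of the Pbx, Meis and Pknox families bind DNA together with Hox proteins. Of 7 tested, 3 rose in WT at L8 and 0 fell, and in YYFF 1 rose and 0 fell. These are 42.9% and 14.3% of the list, against 36.1% and 36.4% of all genes. In WT Meis1 rose from 7.56 and 7.55 at L0 to 8.79 and 8.98 at L8, a change of 1.33 ± 0.16 (adjusted p = 3.19e-04), and Pknox1 and Meis2 rose by 0.53 and 0.43. In YYFF Pbx3 rose by 0.96 ± 0.24, from 6.12 and 6.29 to 7.29 and 7.04. The median of the 7 was 0.43 in WT and 0.20 in YYFF, against 0.00 and 0.03 over all genes. On the mean over conditions 1 was higher in YYFF (Meis3, 0.57) and 3 were lower, among them Pbx2 (-0.57). That is 57.1% called, against 46.6% of all genes (22.4% higher, 24.2% lower).

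Polycomb proteins keep Hox genes silent through methylation of histone H3 and compaction, and Trithorax proteins oppose them. Of 23 tested Polycomb genes, 3 were higher and 6 lower in YYFF on the mean over conditions (39.1% called, against 46.6% of all genes), with a median of -0.06 against -0.02 over all genes. Phf19, an accessory subunit of the methyltransferase complex, was higher by 1.03 ± 0.07, Scmh1 by 0.92 ± 0.09 and Pcgf1 by 0.61 ± 0.06. Phc1 was lower (-0.54 ± 0.07). Ezh2, the methyltransferase, was lower (-0.52 ± 0.09). Cbx7, a reader of the mark, was lower too (-0.89 ± 0.10) and above background on no YYFF array, so the filter fixed its direction. With laminin rounds in YYFF, 5 Polycomb genes rose and 0 fell at L4, and 6 rose and 1 fell at L8. The shares called, 21.7% and 30.4%, were below the 31.5% and 36.4% of all genes. In WT at L8, 4 rose and 1 fell, 21.7% against 36.1%.

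Of 13 tested Trithorax and H3K27 demethylase genes, 2 were higher and 4 lower in YYFF on the mean over conditions (46.2% called, against 46.6% of all genes). Kdm6a, an H3K27 demethylase, was lower (-0.70 ± 0.07, adjusted p = 2.57e-05), at 9.36 to 9.72 on the YYFF arrays against 10.03 to 10.43 on the WT arrays. In WT at L8, 1 rose and 6 fell, with a median of -0.28 against 0.00 over all genes, of which 18.4% rose and 17.7% fell. Mllt3 (-1.48 ± 0.24) and Kmt2b (-0.96 ± 0.21) were among those that fell, Mllt3 being part of a complex that aids transcript elongation and Kmt2b an H3K4 methyltransferase. In YYFF at L8, 2 rose and 2 fell, 30.8% against 36.4% of all genes, with a median of -0.15 against 0.03.

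Retinoic acid switches on 3′ Hox genes in the embryo through nuclear receptors. Of 17 genes of its synthesis, transport and signalling on the array, 6 were tested. Rxra, a receptor subunit, rose in both clones at L8, by 1.37 ± 0.22 in WT and by 1.45 ± 0.22 in YYFF, at least 2.15-fold and 2.21-fold. Rxra was above background on no L0 array and passed the filter through L4 and L8 alone, so the filter fixed the direction of both rises. Crabp2, which carries retinoic acid to the nucleus, was at 7.51 on both arrays in WT L0, 9.18 and 9.29 in WT L4, and 10.11 and 9.91 in WT L8, a rise of 2.50 ± 0.13 at L8 (adjusted p = 2.09e-06). In YYFF it was at 8.29 and 8.61 at L0, 9.10 and 9.15 at L4, and 7.97 and 8.11 at L8, so that L4 was the highest group and L8 the lowest. The YYFF difference between L8 and L0 was -0.41 ± 0.13 (adjusted p = 0.0356). Hoxb1, Hoxb2 and Hoxd1, which respond to retinoic acid in the embryo, were above background on no array of either clone.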

How the data were processed

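Total RNA was hybridised to 12 Illumina bead arrays, 100 ng being amplified and biotin-labelled for each, per the labels' protocols. For every array the deposited non-normalized table lists 25697 probes with, per the file headers, their signal intensity and detection p-value. A processed intensity table was also deposited. In 11 of its 12 columns the median is 80.24, whereas WT L0 replicate 2 was left there as in the non-normalized table (median 87.0). Of the software behind it, the submitters' processing notes give only limma, and how the authors made these values is otherwise not given in the sources used here.

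With limma 3.58.1 in R 4.3.3, normexp background correction (offset 16) used negative-control means and SDs that limma infers from detection p-values. Quantile normalization and a log2 transform followed. Probes with a detection p under 0.05 on at least 2 of 12 arrays were kept (12974), and the probe with the highest mean stood for each gene (8891 genes). Symbols came from the platform annotation, updated through RefSeq by Entrez ID for 23962 of 23978 named probes. One coefficient per group was fitted to all 12 arrays, and contrasts were tested with eBayes and Benjamini-Hochberg adjustment. For a member not above background in one group, "at least N-fold" sets the brighter mean against the mean, per array, of the higher of its own value and the lowest signal above background. The number of arrays limits the precision.

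Groups came from the titles. Members, gene lists and comparisons were chosen with earlier results of these data known. All members past the threshold in any contrast are given by array. The genes named from each other list are among up to 6 with the largest change in a contrast, and not all of these are named. In data simulated on YYFF L8 vs L0 over 8891 genes, 29.9%, 71.6% and 97.0% of genes changed by 0.5, 1 and 2 on the log2 scale were found, with 0 in the wrong direction. Another 12 unchanged genes were called. Only 67, 67 and 66 genes were changed at these sizes, against 3234 called in the real contrast, so the shares found need not carry over. Alternatives are given at the end. Motifs were counted on both strands of the 300-base RefSeq promoters.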

Additional observations from a re-analysis of the deposited data

Results flagged for a closer look

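Changes with laminin that differed between the clones are given here as YYFF change minus WT change on the log2 scale, by limma's interaction contrast with Benjamini-Hochberg adjustment over 8891 genes. At L4 the difference was positive for Hoxa7 (2.42 ± 0.18, adjusted p = 1.88e-05), Hoxa5 (2.08 ± 0.25), Hoxb5 (1.68 ± 0.28), Hoxb4 (1.66 ± 0.20) and Hoxd8 (0.57 ± 0.18, adjusted p = 0.0479). It was negative for Hoxb7 (-1.81 ± 0.13, adjusted p = 1.41e-05) and Hoxd10 (-0.86 ± 0.18). At L8 it was positive for Hoxb4 (1.99 ± 0.20, adjusted p = 8.85e-05), Hoxa7 (1.49 ± 0.18), Hoxb6 (1.39 ± 0.40, adjusted p = 0.0287), Hoxd8 (1.33 ± 0.18), Hoxa5 (1.19 ± 0.25) and Hoxb5 (1.13 ± 0.28). It was negative for Hoxb7 (-1.76 ± 0.13, adjusted p = 1.35e-05) and Hoxd10 (-1.20 ± 0.18).

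For Hoxa5 and Hoxa7 at L4 and for Hoxd8 at L8, both YYFF arrays moved up from L0 and both WT arrays moved down. For Hoxb4, Hoxb6 and Hoxb7 the WT arrays were below background throughout, so the difference is that of YYFF alone. Each passed the filter only through the YYFF groups where it was high. The filter therefore fixed the direction of their differences, and their adjusted p-values carry that selection. Some of these calls were lost with an array left out. Hoxd8 at L4 was lost without WT L0 replicate 2, WT L4 replicate 1, WT L4 replicate 2 or any one of the 4 YYFF arrays (0.45 to 0.66). Hoxb6 at L8 was lost without any one of the 4 WT arrays or without YYFF L0 replicate 2 (1.26 to 1.42), and Hoxb5 at L8 without YYFF L0 replicate 2 (1.06, adjusted p = 0.0535).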

How the results depend on the processing

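The counts of members called kept within 1.5 times of the reported ones under most alternatives, and none reversed. With median scaling, WT L4 vs L0 gave 2 members in place of 4 and WT L8 vs L0 gave 3 in place of 5. Fitting only the compared arrays gave 2 for WT L4 vs L0. Without a filter on dim probes, WT L8 vs L4 gave 4 in place of 2. With one array left out, the counts ran from 2 to 3 for WT L8 vs L0, 1 to 2 for WT L8 vs L4, 5 to 8 for YYFF L4 vs L0 and 3 to 4 for YYFF vs WT at L0. A replicate block on the title numbers gave 8 members for WT L8 vs L0 and 4 for WT L8 vs L4. Those numbers are not a stated pairing: same-numbered arrays of 15 pairs of groups had correlated deviations of 0.0248 to 0.354, over 0.1 in 13. The block on the description numbers, which match the titles in 3 of 6 groups, moved no count by over 1.5 times. Of the 83 called values of single members, 71 kept their call with median scaling, 74 without a filter, 80 with every probe and 81 with the authors' values. The cause of these moves was not tested. A slide block was not run, since the headers name no slide. Members counted as expressed numbered 16 at a detection p under 0.01 and 18 when both arrays of a group were required, in place of 21. Low signals limit Hoxa2, Hoxa4, Hoxa11, Hoxb3, Hoxc4, Hoxc10, Hoxd9 and Hoxd11, which lie near the lowest log2 signal above background (5.40 to 5.85).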

Other observations

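Other transcription factors that mark body position or limb mesenchyme also differed between the clones. Of 41 such genes on the array 19 were tested, and on the mean over conditions 8 were higher and 5 lower in YYFF (68.4% called, against 46.6% of all genes), with a median of 0.05 against -0.02 over all genes. Prrx1, a limb and craniofacial mesenchyme factor, was at 9.28 to 10.68 on the YYFF arrays. In WT it was not above background at L4 and L8 (5.12 to 5.32), and at L0 its replicates lay far apart (6.17 ± 1.17, SD, n = 2), with replicate 2 alone above background. Lhx9 and Lhx2, related factors that act together in the limb bud, went opposite ways. Lhx9 was at 8.86 and 8.91 in YYFF L0, 6.62 and 6.56 in YYFF L4, and 6.05 and 5.31 in YYFF L8, and below background in WT. Lhx2 was above background in WT alone, at 5.64 to 6.19, against 4.59 to 4.73 in YYFF. Prrx1, Lhx9 and Lhx2 passed the filter only through the clone where they were higher, as did Msx2, which was lower in YYFF. The filter fixed the direction of their clone differences, and the share called includes them.

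Lhx9 fell in YYFF at L8 (-3.20 ± 0.20, adjusted p = 3.42e-06), and so did Foxf1, a factor of visceral mesenchyme (-1.43 ± 0.16), at least 2.05-fold. Dlx3 rose by 1.54 ± 0.32. Of the 19 genes, 2 rose and 6 fell in YYFF at L8, and 1 rose and 5 fell in WT, which is 42.1% and 31.6% called, against 36.4% and 36.1% of all genes. Irx3 fell in WT from 10.56 and 10.44 at L0 to 9.07 and 9.01 at L4 and to 8.30 and 8.32 at L8 (-2.19 ± 0.13, adjusted p = 4.94e-06). In YYFF it was at 8.59 and 8.83 at L0, 8.58 and 8.53 at L4, and 7.63 and 7.96 at L8, so L8 was lowest in both clones. Nr2f2 fell at L8 in WT (-1.16 ± 0.32) and in YYFF (-1.73 ± 0.32), where the L8 replicates lay far apart (5.77 and 6.98). Nr2f1 moved in opposite directions, with a rise of 0.85 ± 0.12 in WT and a fall of 1.40 in YYFF (-1.40 ± 0.12), both at L8.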
